A study of Mus musculus with 2 samples.

Results

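Cells that held transcripts of Scx (scleraxis), the bHLH transcription factor that marks tendon progenitors, were taken from single-cell libraries of interlimb somites of C57BL/6 wild-type mouse embryos at E9.5 and E11.5. Somites of 3 embryos were pooled at each age, dissociated with trypsin and made into 1 10x Genomics library, so that stage and library cannot be told apart and no difference could be set against the spread between embryos. The embryos carried no transgene or treatment. The deposited matrices held 10121 barcodes with 149368952 unique molecular identifiers (UMIs, each counting 1 captured transcript) at E9.5 and 10167 barcodes with 136655763 UMIs at E11.5.

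Barcodes with 200 to 6499 genes and under 15% mitochondrial UMIs were kept, 9851 at E9.5 and 9595 at E11.5. Scx cells were chosen by having at least 2 Scx UMIs and no UMI of Sox2 (neural tube), Cdh5 (endothelium) or Myog (differentiating muscle). There were 2314 Scx cells among 19446 kept cells, 25 at E9.5 and 2289 at E11.5. They were described against cells with at least 1 UMI of Pax1 or Pax9, the paired-box factors of the sclerotome, and no Scx UMI, which are called sclerotome cells here and numbered 2195 at E9.5 and 1398 at E11.5. Levels are UMIs of a gene per 1000000 UMIs of a class (UPM), with exact 95% Poisson intervals, and log2 ratios carry the exact interval of a ratio of 2 Poisson counts. All intervals cover counting error only. Genes with at least 100 UMIs in both classes together were compared, and a gene was called higher or lower when its levels differed at least 2-fold. A gene sparse in 1 class could thus reach the minimum through the other class alone. With 1 library per stage these are descriptions by size, without a test.

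In the trunk, tendon progenitors form the syndetome, a stripe of Scx-positive cells that arises in the dorsal sclerotome next to the myotome. The myotome secretes FGF ligands, and the ETS factors Etv4 and Etv5 with the feedback inhibitors Dusp6 and the Sprouty genes are known targets of that signal. TGF-beta ligands are known to maintain Scx expression, and the sclerotome cells that instead express Sox9 with Col2a1 form the cartilage of vertebrae and ribs. Scx binds E-box DNA (CANNTG) as a heterodimer with ubiquitous bHLH partners. Tenomodulin (Tnmd), Mohawk (Mkx) and the fibrillar collagens mark later tendon cells.

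Genes of the tendon marker list that were higher in Scx cells at E11.5 are shown first by their promoters, because Scx binds E-boxes. The 5 genes were Tnc, Chodl, Fmod, Thbs4 and Mkx, and RefSeq promoter entries (build GRCm38.p6) were matched for 4 of them. Each line gives the 250 bases upstream of the transcript start, written 5′ to 3′ on the gene's strand with each CANNTG match in capitals. They lie at chr4:64047016-64047265 (minus strand) for Tnc, chr16:78930698-78930947 (plus strand) for Chodl, chr1:134037004-134037253 (plus strand) for Fmod and chr13:92794819-92795068 (minus strand) for Thbs4. For Tnc, which has 2 entries, the first was used.
Tnc: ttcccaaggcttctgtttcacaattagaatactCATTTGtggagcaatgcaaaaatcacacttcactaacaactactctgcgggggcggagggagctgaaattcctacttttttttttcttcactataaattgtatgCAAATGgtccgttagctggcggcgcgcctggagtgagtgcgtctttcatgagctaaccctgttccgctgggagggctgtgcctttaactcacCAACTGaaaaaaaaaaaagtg
Chodl: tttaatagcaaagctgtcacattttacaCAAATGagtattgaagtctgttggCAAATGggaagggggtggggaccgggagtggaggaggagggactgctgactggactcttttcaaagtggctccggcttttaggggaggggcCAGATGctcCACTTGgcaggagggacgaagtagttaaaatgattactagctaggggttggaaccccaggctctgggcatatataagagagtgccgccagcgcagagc
Fmod: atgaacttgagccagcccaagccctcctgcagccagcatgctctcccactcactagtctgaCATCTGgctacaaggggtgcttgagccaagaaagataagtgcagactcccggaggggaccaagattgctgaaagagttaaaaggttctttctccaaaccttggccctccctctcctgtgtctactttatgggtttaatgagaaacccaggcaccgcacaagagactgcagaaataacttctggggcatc
Thbs4: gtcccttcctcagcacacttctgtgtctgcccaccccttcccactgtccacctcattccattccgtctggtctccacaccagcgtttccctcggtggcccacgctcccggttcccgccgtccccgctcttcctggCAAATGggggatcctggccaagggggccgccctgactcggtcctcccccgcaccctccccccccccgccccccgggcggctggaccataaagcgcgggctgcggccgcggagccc
Tnc held 3 matches, Chodl 4, and Fmod and Thbs4 1 each. The letters CANNTG read as the same motif on both strands and were present in 66.2% of 32851 promoter windows of this length, so that a match by itself is common. The E-box CAGATG, searched on both strands and overlapping CANNTG, was found in Chodl and, as CATCTG on the other strand, in Fmod, against 14.4% of all windows. These are matches of letters and not measured binding sites.

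Scx itself differed between the stages (plot of Scx UMIs per kept cell). At E9.5 the 25 Scx cells were 0.254% of kept cells (exact Clopper-Pearson interval 0.164 to 0.374%), and 24 of them held 2 Scx UMIs and 1 held 3. At E11.5 the 2289 Scx cells were 23.9% of kept cells (23.0 to 24.7%), with a median of 4 Scx UMIs and a maximum of 38. Depth was alike, with a median of 12124 UMIs per Scx cell at E9.5 and 13529 at E11.5. Over all kept cells Scx stood at 2.54 UPM at E9.5 and 111 UPM at E11.5. Scx cells held 85.8% of the 14341 Scx UMIs of kept cells at E11.5, and the 229 Scx cells with the most Scx UMIs held 29.8% of those of their class.

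**Figure D1:**
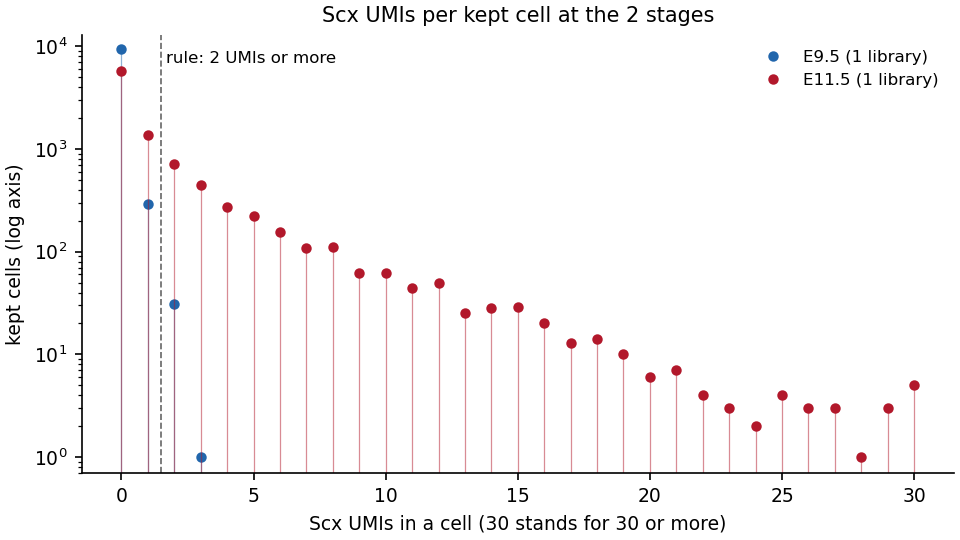
Number of kept cells (log axis) by the number of Scx UMIs in the cell, for the E9.5 and the E11.5 library, with the minimum of 2 UMIs as a dashed line. The E9.5 cells end at 3 UMIs, while the E11.5 cells reach 38 (drawn at 30 or more).

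The Scx gene lies at chr15:76457452-76459458 on the plus strand, within an intron of Bop1, a ribosome biogenesis gene on the minus strand (chr15:76452989-76477277). Bop1 stood at 46.9 UPM in Scx cells and 34.1 UPM in sclerotome cells at E11.5, a log2 ratio of 0.46. Scx was also counted in cells that held markers of other types, to read its background. Of 110 E11.5 cells with at least 50% globin UMIs (median 16822.5 UMIs), 0 held an Scx UMI, which allows a share of up to 2.73% by a limit of 3 counts and 3.3% by the exact interval. An Scx UMI was found in 6.84% of E11.5 cells with at least 2 Sox2 UMIs, in 12.9% of those with at least 2 Cdh5 UMIs and in 39.6% of all kept cells. After thinning each cell to 5000 UMIs the shares were 2.98%, 2.99% and 28.1%. The share was higher in cells with at least 2 UMIs of Myog (22.1%, thinned 8.47%) or of the neuronal gene Tubb3 (16.2%, thinned 10.2%). In cells with at least 2 UMIs of Sox10 it was 9.43% (thinned 3.31%). The 1269 cells with at least 2 UMIs of the globin gene Hbb-y stood at 40.7% (thinned 29.1%), and 27.7% of them held at least 2 Scx UMIs. At least 2 Scx UMIs, the minimum of the rule, were held by 3.13% of the Sox2 cells, 5.71% of the Cdh5 cells, 9.58% of the Myog cells and 25.4% of all kept cells. At E9.5 the Sox2 cells stood at 1.92% and the Cdh5 cells at 0.712%, against 3.27% of all kept cells, and Scx was found in 8.11% of 37 Myog cells. At E9.5 at least 2 Scx UMIs were held by 0.171% of the Sox2 cells and 0.325% of all kept cells. Of the 268 cells with at least 2 Hbb-y UMIs at this stage, 0.373% did so. After thinning, the Sox2 cells stood at 0.434% and all kept cells at 1.27%.

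Just outside the threshold, 1220 cells at E11.5 and 230 at E9.5 held 1 Scx UMI and none of Sox2, Cdh5 or Myog. The exclusion removed 148 cells at E11.5, 121 of them with Myog, and 7 cells at E9.5. The 148 cells had a median of 19499 UMIs, and the doublet caller Scrublet marked 28.4% of them, against 5.29% of the E11.5 Scx cells and 4.79% of the sclerotome cells. The 2 libraries shared 30 barcodes, among them 6 E11.5 Scx cells and 0 of E9.5.

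At E11.5, Scx cells differed from sclerotome cells in few genes. Of 11381 genes, 165 (1.45%) were at least 2-fold higher and 320 (2.81%) at least 2-fold lower, and the median log2 ratio was −0.04. Since Scx itself chose one class and Pax1 and Pax9 the other, these ratios describe the classes and support nothing beyond them. A comparison with the 1313 sclerotome cells that also lacked Sox2, Cdh5 and Myog, as the Scx cells do, left 170 genes higher (1.51% of 11255) and 220 lower (1.95%). A further comparison used the 577 Scx cells that held Pax1 or Pax9, so that both classes shared this criterion.

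**Figure D2:**
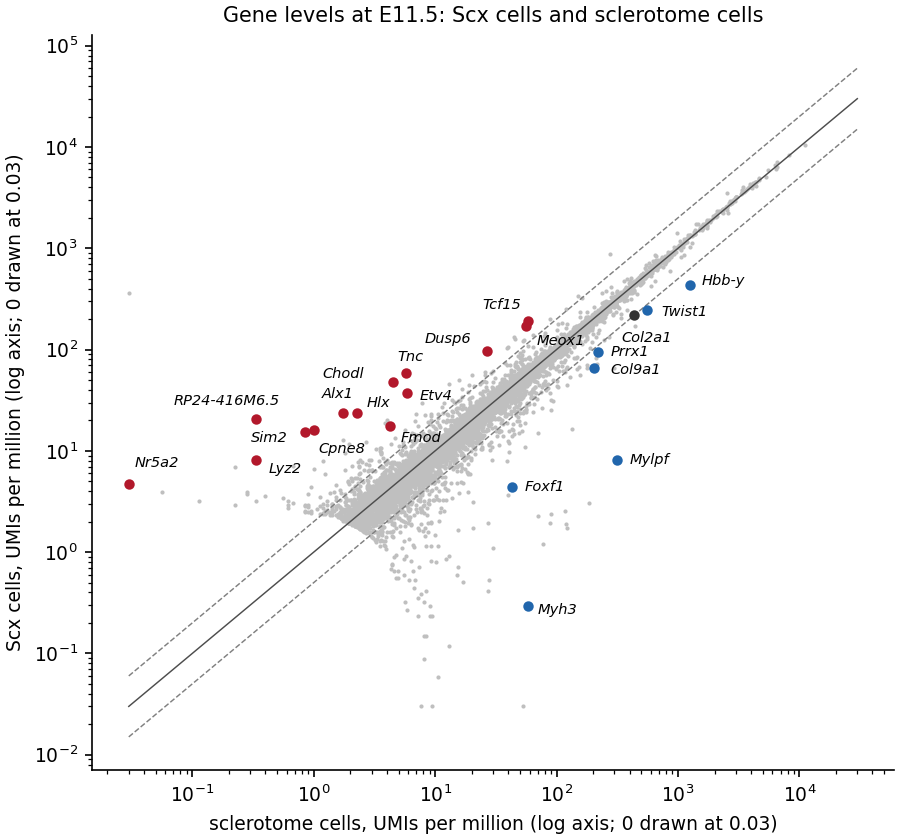
Levels of 11381 genes in E11.5 Scx cells (vertical) and sclerotome cells (horizontal) in UPM on log axes, with equal levels as a solid line and 2-fold differences as dashed lines. Named genes at least 2-fold higher are red, at least 2-fold lower blue, and Col2a1, just within 2-fold, is black.

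The tendon list was divided at E11.5. Of its 12 genes not used for the choice of cells, 11 were compared, 5 were higher and 1 was lower, with a median log2 ratio of 0.45 beside −0.04 over all genes. Tnc encodes tenascin C, a glycoprotein of developing tendon. It stood at 58.7 UPM (56.1 to 61.3) in Scx cells and 5.75 UPM (4.69 to 6.98) in sclerotome cells, a 10.2-fold difference (log2 3.35, 3.06 to 3.65). Chodl, which encodes the C-type lectin chondrolectin, stood at 47.4 UPM (45.1 to 49.7) and 4.51 UPM (3.57 to 5.61), a 10.5-fold difference. Their intervals lay far apart. Fmod, the collagen-binding proteoglycan fibromodulin, stood at 17.7 and 4.28 UPM (log2 2.05, 1.7 to 2.41).

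The remaining tendon genes were sparse or shared with the sclerotome cells. The homeobox factor Mkx stood at 4.11 and 1.63 UPM (log2 1.33, 0.74 to 1.96), and the matrix gene Thbs4 at 3.87 and 1.35 UPM. Tnmd, a membrane protein of mature tenocytes, had 42 UMIs in Scx cells and 9 in sclerotome cells, too few for the comparison. At least 1 UMI of Mkx or Tnmd was held by 6.03% of Scx cells. Kera, the proteoglycan keratocan, was lower in Scx cells at 3.07 UPM against 8.68 UPM. Dcn, the most abundant gene of the list, was level at 59.2 and 60.7 UPM, and Bgn (41.8 and 40.4 UPM) and Col12a1 (37.5 and 42.0 UPM) were also within 2-fold.

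Per cell, at least 1 UMI of Tnc, Chodl or Fmod, 3 genes grouped after their levels were seen, was held by 1084 of 2289 Scx cells (47.4%, 45.3 to 49.4%) and by 11.9% of sclerotome cells. Thinned to 5000 UMIs the shares were 31.8% and 6.10%. The label of tendon progenitors was thus met by part of the list at E11.5, since 5 of its 11 compared genes were within 2-fold and 1 was lower. Among the higher genes, the sparse Mkx and Thbs4 reached the minimum of UMIs for the comparison through Scx cells alone. At their sclerotome levels they would not have been compared, so their place among the higher genes adds little to the label. It rests on Tnc, Chodl and Fmod. In the reverse view, Scx cells made up 23.9% of kept cells but 59.9% of the 1203 cells with Tnc, 57.9% of those with Fmod and 54.5% of those with Chodl. For Mkx and Tnmd the shares were 33.6% and 39.5%.

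The broader list of fibrillar and tendon matrix gave 4 of 29 genes higher and 2 lower, with a median log2 ratio of −0.07. Postn (periostin) joined Tnc, Fmod and Thbs4 at 56.3 UPM against 25.6 UPM. Lum (lumican) was lower at 83.3 against 211 UPM, as was the collagen cross-linking enzyme Lox at 2.51 against 11 UPM. The main collagens of tendon were within 2-fold, with Col1a1 at 173 and 194 UPM, Col1a2 at 307 and 379 UPM and Col3a1 at 642 and 532 UPM.

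Targets of FGF signalling stood higher in Scx cells. Of 16 genes of the FGF and ETS axis 14 were compared, 8 were higher and 2 lower, and the median log2 ratio was 1.02, beside −0.04 over all genes. The 8 include the ligand gene Fgf8 and the inhibitor Spry4, which reached the minimum of UMIs through Scx cells alone. At their sclerotome levels they would not have been compared, so their place among the higher genes adds little. Among the transcription factors, Etv4 stood at 37.0 UPM (34.9 to 39.1) against 5.92 UPM (4.84 to 7.16), with a log2 ratio of 2.64 (2.35 to 2.94), and was held by 34.6% of Scx cells and 5.87% of sclerotome cells. Etv5 stood at 23.3 against 6.99 UPM and Etv1 at 18.4 against 9.07 UPM. The feedback inhibitors followed, with the ERK phosphatase gene Dusp6 at 96.8 against 26.9 UPM (log2 1.85, 1.71 to 1.99), Spry1 at 56.0 against 19.9 UPM and Spry4 at 12.8 against 1.75 UPM. Il17rd, a membrane inhibitor of FGF signalling, was just past 2-fold at 31 against 15.3 UPM, and Spry2 just under it at 73.1 against 37.5 UPM.

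Among ligands and receptors, Fgf8 was sparse, with 108 UMIs in Scx cells and 6 in sclerotome cells (3.19 and 0.338 UPM). The receptor Fgfr1 was level at 105 and 97.0 UPM, while Fgfr2 (14.6 against 44.6 UPM) and Fgfr3 (1.62 against 4.51 UPM) were lower in Scx cells. At least 1 UMI of Etv4, Etv5, Dusp6 or Spry1 was held by 77.9% of Scx cells and 38% of sclerotome cells.

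Other pathway lists stood closer to the sclerotome cells. All 24 TGF-beta and BMP genes were compared, with 1 higher, 2 lower and a median log2 ratio of −0.08. The higher gene was the joint ligand Gdf5 (4.37 against 0.958 UPM), which reached the minimum of UMIs through Scx cells alone. The lower ones were Tgfb1 (1.77 against 3.72 UPM) and the activin antagonist Fst (3.28 against 9.86 UPM). Against sclerotome cells without Sox2, Cdh5 and Myog, Tgfb1 was within 2-fold at log2 −0.92. The ligand Tgfb2 stood at 143 and 109 UPM and Tgfb3 at 14.2 and 11.6 UPM. Of 9 hedgehog genes 1 was higher and 3 were lower, among them the receptor and target gene Ptch1 (18.9 against 55.1 UPM) and the effector Gli1 (3.99 against 10.7 UPM), while the co-receptor Boc was higher (33.7 against 16.7 UPM). Against sclerotome cells without Sox2, Cdh5 and Myog, Boc and Il17rd were just under 2-fold, with log2 ratios of 0.98 and 0.96. Of 16 Wnt and Notch genes 0 were higher and 5 were lower, including the Wnt targets Lef1 (13.9 against 36.0 UPM) and Axin2 (12.4 against 40.1 UPM).

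Among the bHLH relatives and partners of Scx, 1 of 12 compared genes was higher and 2 were lower (median log2 ratio −0.43). Tcf15 (paraxis), a somite factor closely related to Scx, stood at 191 UPM (186 to 196) against 58.5 UPM (55.0 to 62.2), with a log2 ratio of 1.71 (1.61 to 1.80), and was held by 75.9% of Scx cells. Twist1, a bHLH factor of mesenchyme, was lower at 245 against 551 UPM. The E proteins with which such factors pair were within 2-fold, with Tcf3 at 260 and 255 UPM, Tcf4 at 357 and 457 UPM and Tcf12 at 221 and 290 UPM. Id4, a dominant-negative partner, was lower at 2.33 against 8.56 UPM.

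Of 7 sclerotome genes compared, Meox1 was higher and Foxc1, Foxc2 and Tbx18 were lower. Meox1, a homeobox factor of somites, stood at 172 against 56.5 UPM (log2 1.61, 1.51 to 1.7), and 55.9% of Scx cells held both Tcf15 and Meox1. That was 1280 cells, close to the 1168 expected if both were held independently, and 27.9% after thinning. Tbx18, a factor of the anterior somite compartment, stood at 11.7 against 27.8 UPM, whereas Uncx, of the posterior compartment, was level at 19.3 and 17.2 UPM. Nkx3-2 was almost absent, with 4 UMIs in Scx cells and 14 in sclerotome cells.

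Cartilage genes were lower or level. Of 14 compared, 0 were higher and 8 were lower, with a median log2 ratio of −1.17. Col9a1 (collagen IX) stood at 65.4 against 203 UPM and Acan (aggrecan) at 1.09 against 5.35 UPM, and Col2a1 (collagen II) was just within 2-fold at 220 against 437 UPM. Against sclerotome cells without Sox2, Cdh5 and Myog, Col2a1 was past 2-fold at log2 −1.07, and 9 of 14 cartilage genes were lower. Sox9, the master factor of chondrocytes, was close to level at 235 against 308 UPM (log2 −0.39, −0.44 to −0.34). Many Scx cells carried the cartilage pair, since 59.9% held Sox9, 52.2% held Col2a1 and 975 (42.6%, 40.6 to 44.7%) held both. If both were held independently 717 cells would be expected, and after thinning 27.9% held both.

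**Figure D3:**
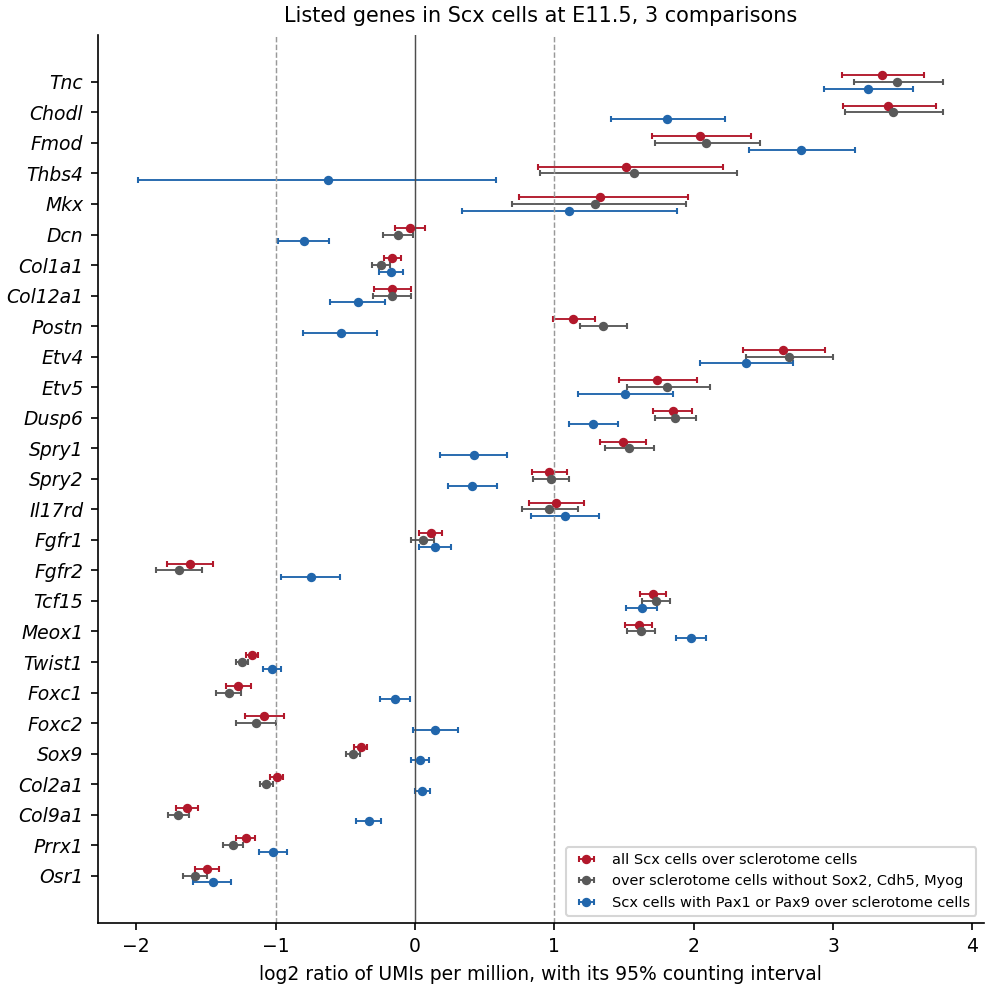
Log2 ratios of UPM at E11.5 with 95% counting intervals (dashed lines at 2-fold), for all Scx cells over sclerotome cells (red), over sclerotome cells without Sox2, Cdh5 and Myog (grey), and for Scx cells with Pax1 or Pax9 over sclerotome cells (blue). Tnc lay above 3 in all 3 comparisons, and Col9a1 moved from −1.63 to −0.33 in the Scx cells with Pax1 or Pax9.

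The 15 genes with the highest ratios by the lower bound of their interval were led by RP24-416M6.5, a long intergenic noncoding RNA at chr6:72162849-72167707, with 20.4 UPM (692 UMIs) in Scx cells and 0.338 UPM (6 UMIs) in sclerotome cells (log2 5.92, 4.79 to 7.37). Of these genes, 4 encode transcription factors. Sim2, a bHLH-PAS factor, stood at 15.5 against 0.845 UPM (18.3-fold), the homeobox factor Alx1 at 23.9 against 1.75 UPM (13.7-fold) and the homeobox factor Hlx at 23.5 against 2.25 UPM (10.4-fold). The nuclear receptor Nr5a2 had 160 UMIs in Scx cells and 0 in sclerotome cells, which makes it at least 28.0-fold higher against a floor of 3 UMIs over the class. Tnc and Chodl were also in this group. Of the 15 genes, only Tnc, Chodl and Hlx would have been compared at their sclerotome levels. The rest reached the minimum of UMIs through Scx cells alone, so their high rank describes the classes and adds no support.

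The genes of this group not yet described encode enzymes, receptors and membrane proteins. Cpne8, a calcium-dependent membrane-binding copine, stood at 15.9 against 1.01 UPM. The sulfotransferase Chst8 (7.12 against 0.676 UPM), the lipase Pnlip (6.97 against 0.225 UPM), the glycosyltransferase Galnt3 (3.19 against 0.113 UPM, the latter from 2 UMIs) and the receptors Mc2r (3.96 against 0.282 UPM) and Gpr12 (3.78 against 0.282 UPM) were sparse in both classes. Fam150b, a ligand of the ALK receptor, had 132 UMIs against 1 (log2 6.11, 3.61 to 11.43). Lyz2, the lysozyme of macrophages, had 266 of its 272 UMIs in Scx cells (97.8%) in 1 cell, and without that cell its log2 ratio was −0.93.

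The lowest ratios belonged to contractile genes of muscle, among them Myh3 (0.295 against 57.7 UPM), Actc1 (3.07 against 184 UPM), Acta1 (1.89 against 120 UPM) and Myl1 (1.71 against 121 UPM). Myog-positive cells had been left out of the Scx cells but not of the sclerotome cells. Against sclerotome cells without Sox2, Cdh5 and Myog the log2 ratio of Myh3 was −0.75 and that of Acta1 was 0.07. Myh3 had 10 UMIs in Scx cells and Acta1 64, and both genes fell short of the minimum of UMIs there. Their ratios against these cells thus set no direction. Of 8 muscle genes compared, which include neither Myh3 nor Acta1, 0 were past 2-fold. In that comparison, whose lowest genes were named after their values were seen, these included the forkhead factors Foxf1 (4.43 against 45.8 UPM) and Foxf2 (log2 −3.69), Nkx6-1 (log2 −3.90) and Tbx1 (7.92 against 40.7 UPM). Dbh, an enzyme of noradrenaline synthesis, was lowest at log2 −7.58, but 107 of its 186 UMIs in sclerotome cells lay in 1 cell.

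Levels of many of these genes followed the number of Scx UMIs within the E11.5 library, a description along the same measure that chose the cells. Tnc stood at 5.68 UPM in cells without Scx, 13.3 at 1 UMI, 28.0 at 2, 39.3 at 3, 55.9 at 4, 65.2 at 5 to 9 and 117 UPM at 10 or more. Chodl ran from 7.48 to 97.5 UPM, Dusp6 from 26.4 to 174 UPM and Sim2 from 0.858 to 47.0 UPM over the same classes. Fmod reached 19.7 UPM at 3 Scx UMIs and stood at 22 UPM at 10 or more. Cells with 1 and with 2 Scx UMIs, on either side of the minimum, thus differed in Tnc by a ratio close to that between 0 and 1 UMI. Deeper cells take more Scx UMIs, and the median depth was 11428 UMIs in cells without Scx and 16255.5 UMIs in those with 10 or more.

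Pax1, which the rule used to choose sclerotome cells, and the genes Col9a1 and Twist1 took another course. Pax1 stood at 92.6 UPM without Scx, 120 at 1 UMI, 116 at 2, 83.3 at 3, 62.6 at 4, 41.3 at 5 to 9 and 15.9 UPM at 10 or more. Col9a1 went from 101 UPM to 22.5 UPM and Twist1 from 444 to 158 UPM between the first and the last class. Sox9, a gene of both the sclerotome and the cartilage list, went the other way. It stood at 145 UPM without Scx and was highest, at 353 UPM, in the cells with 10 or more Scx UMIs.

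**Figure D4:**
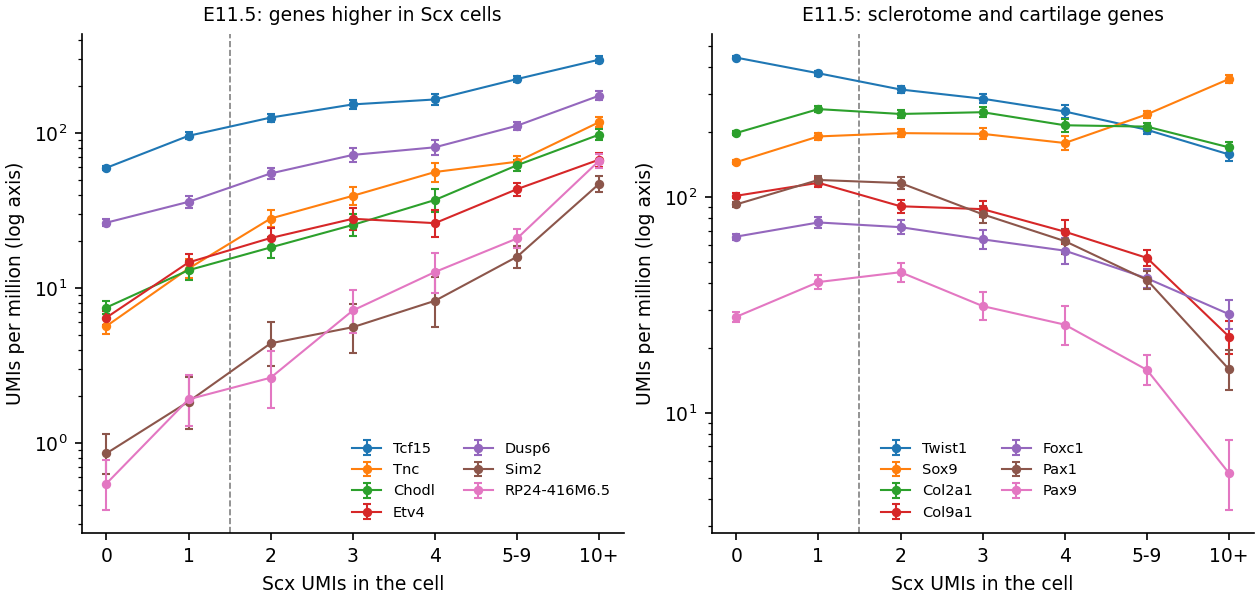
Levels at E11.5 in UPM (log axis, bars are 95% counting intervals) by the number of Scx UMIs in the cell, for genes higher in Scx cells (left) and for sclerotome and cartilage genes (right), with the minimum of 2 UMIs as a dashed line. Tnc went from 5.68 to 117 and Pax1 from 92.6 to 15.9 between cells without Scx and cells with 10 or more Scx UMIs.

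The Scx cells at E11.5 were not uniform. Of 2289 cells, 577 (25.2%) held Pax1 or Pax9 and 1712 did not. The median depth was 14369 and 13254.5 UMIs, and Scrublet marked 9.71% and 3.8%. Tnc was held by 31% (27.3 to 35.0%) of the cells with and 31.7% (29.5 to 33.9%) of the cells without Pax1 or Pax9, and Hlx by 20.5% and 19.8%. Tcf15 was likewise found in 74.0% and 76.5%. The intervals of these 3 genes overlapped. With all genes read from counts thinned to 5000 UMIs, Hlx was held by 9.30% and 9.79%, Tnc by 14.7% and 19.2% and Tcf15 by 45.7% and 53.2%.

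Other genes divided along it. Sim2 was held by 3.12% of the cells with and 14.8% of the cells without Pax1 or Pax9, Alx1 by 3.47% and 21.1%, Chodl by 7.97% and 22.3% and Postn by 13.7% and 38.6%. Fmod had the reverse order at 29.98% and 14.3%. Col9a1 was held by 62.4% and 18.0% and the Iroquois factor Irx1 by 47.3% and 8.35%. Foxf1, at 9.01% and 0.35%, was nearly limited to the cells with Pax1 or Pax9. After thinning the order was the same for each of these genes, for example 0.775% and 6.65% for Sim2 and 16.0% and 6.33% for Fmod.

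**Figure D5:**
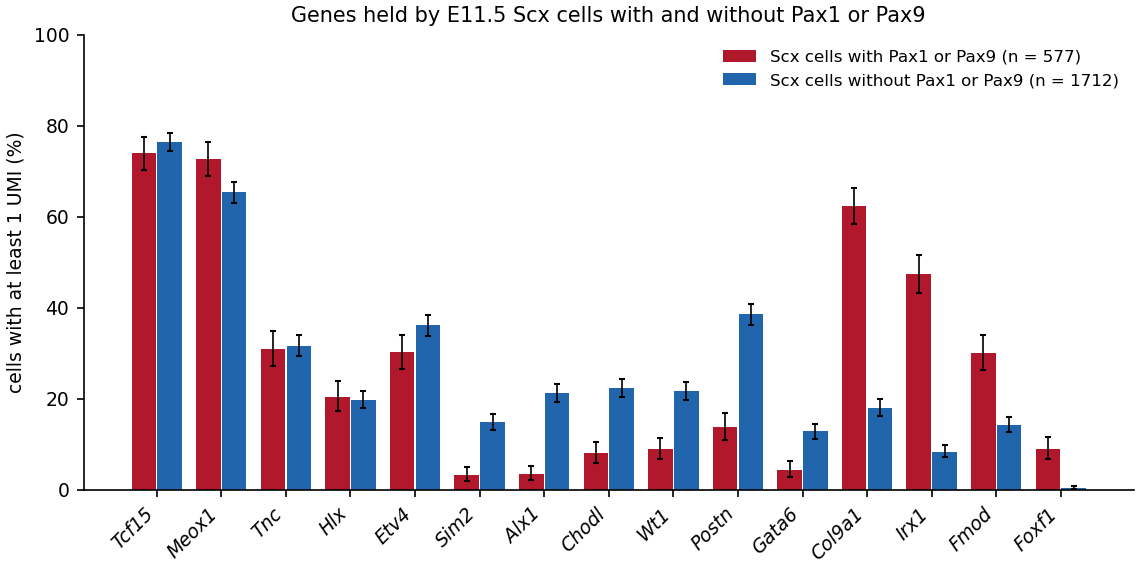
Share of E11.5 Scx cells with at least 1 UMI of each gene (%), for the 577 cells with Pax1 or Pax9 (red) and the 1712 without (blue), with 95% Clopper-Pearson intervals. Intervals of Tcf15, Tnc and Hlx overlapped, Sim2, Alx1, Chodl, Wt1, Postn and Gata6 stood higher without Pax1 or Pax9, and Col9a1, Irx1, Fmod and Foxf1 stood higher with them.

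Set against sclerotome cells, the Scx cells with Pax1 or Pax9 had 60 genes higher (0.58% of 10341) and 217 lower (2.1%). Against sclerotome cells without Sox2, Cdh5 and Myog the lower share was 1.32%. Compared with all sclerotome cells, Tnc (log2 3.25, 2.94 to 3.57), Hlx (3.38), Fmod (2.77), Etv4 (2.37), Tcf15 (1.63) and Meox1 (1.98) remained at least 2-fold higher. Chodl was also higher, but at 1.81 (1.41 to 2.22) its log2 ratio was smaller than the 3.39 of all Scx cells. Of 9 tendon genes compared, 3 were higher and 1 was lower. Alx1 was at 0.71 (−0.10 to 1.51), Postn at −0.53 and Wt1 at 0.30. Of 7 sclerotome genes 2 were higher, Meox1 and Uncx (1.38), and 0 were lower, with Foxc1 at −0.14, Foxc2 at 0.15 and Sox9 at 0.04. Of 14 cartilage genes 0 were higher and 2 lower (median log2 ratio −0.33), with Col2a1 at 0.05. Twist1 was still lower at −1.03. Of 13 FGF and ETS genes compared, 5 were higher and 0 lower (median log2 ratio 0.43). Spry4, 1 of the higher genes, had 79 and 31 UMIs and reached the minimum through the Scx cells. Within the Scx cells, Col9a1 stood at 161 UPM with and 30.2 UPM without Pax1 or Pax9, and Col2a1 at 454 and 134 UPM.

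Cells with Sim2 were a further subset. Of 272 such cells, 40.4% held Alx1, 44.5% Chodl, 55.5% Tnc and 46.3% Wt1, against 13.5%, 15.2%, 28.3% and 14.7% of the 2017 Scx cells without Sim2. The Sim2 cells were deeper, with a median of 15126.5 against 13243 UMIs, and with Sim2 and the other gene both read from thinned counts the shares were 23.4% and 6.92% for Alx1, 28.9% and 11.2% for Chodl, 33.6% and 17.5% for Tnc and 32.0% and 8.70% for Wt1. Fmod was alike, at 20.2% and 17.9%. Of the 356 kept cells with Sim2, 76.4% were Scx cells.

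Genes of neighbouring tissues were measured in the same cells. Of 12 lateral plate and limb genes compared, Tbx5 (10.5 against 3.27 UPM) and Gata6 (14.9 against 6.42 UPM) were higher in Scx cells, and Prrx1 (94.5 against 219 UPM), Osr1 (55.9 against 157 UPM), Msx2, Foxf1 and Foxf2 were lower. Of the intermediate mesoderm list, the zinc finger factor Wt1 was higher at 29.4 against 7.78 UPM and Emx2 lower at 37.3 against 88.2 UPM. Of 9 dermomyotome and dermis genes 0 were past 2-fold, and against sclerotome cells without Sox2, Cdh5 and Myog 2 were lower, Twist2 (log2 −1.04) and Wnt6 (−1.07). Few Scx cells held the early myogenic factors, Pax3 in 5.11% and Myf5 in 3.49%, and the dermomyotome factor En1 was found in 11.5%.

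Markers of other cell types were summed over each list. Neuronal markers summed to 82.5 UPM in Scx cells and 86.3 UPM in sclerotome cells, endothelial markers to 29.4 and 35.0 UPM, white blood cell markers to 7.44 and 12 UPM, neural crest and glia markers to 44.4 and 40.1 UPM, surface ectoderm markers to 23.5 and 16.8 UPM and neural tube markers to 5.14 and 57.3 UPM. In sclerotome cells without Sox2, Cdh5 and Myog the sums were 22.2 UPM for the neural tube, 19.6 for endothelium, 29.2 for neural crest and glia, 79.8 for neurons, 12.7 for white blood cells and 16.4 UPM for surface ectoderm. Against those cells the endothelial sum was thus higher in Scx cells, and 1 of 2 endothelial genes compared, Emcn, was higher (6.41 against 1.05 UPM). Emcn reached the minimum of UMIs through Scx cells alone. Red blood cell markers summed to 695 and 1934 UPM, and 2 Scx cells with at least 10% globin UMIs held 21357 of the 23460 globin UMIs of their class and 5 sclerotome cells 32765 of 34243. Without these cells globin stood at 62.3 and 83.8 UPM. Their part in the other results was not tested, except that leaving these cells out moved no count of higher or lower genes past 1.5 times.

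Genes of proliferation were alike in the classes. All 13 DNA replication genes and all 14 mitosis genes were within 2-fold, with median log2 ratios of 0.05 and 0.09. Of 9 genes of cell cycle exit 2 were lower, among them Cdkn1a (p21), at 1.95 against 27.4 UPM, but its log2 ratio was −0.45 against sclerotome cells without Sox2, Cdh5 and Myog. Of 20 trunk Hox genes 1 was higher, Hoxa7, at 250 against 120 UPM. Of 7 dissociation stress genes 1 was lower and 0 were higher, and of 13 somite polarity genes 2 were higher, Meox1 and Six2, and 3 were lower.

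The 25 Scx cells of E9.5 went against the label of tendon progenitors and are called by their rule. Of 12 tendon genes other than Scx, 10 had 0 UMIs, among them Tnc, Fmod, Mkx and Tnmd, and Chodl and Bgn had 1 UMI each. In the 371215 UMIs of these cells 3 UMIs correspond to 8.08 UPM, so that 0 UMIs do not exclude levels such as the 5.75 UPM of Tnc in E11.5 sclerotome cells. A Tnc level like the 58.7 UPM of E11.5 Scx cells lay above that floor. Pax1 or Pax9 was found in 3 of the 25 cells, Sox9 in 12, Tcf15 or Meox1 in 18, and Prrx1 or Osr1 in 19.

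Several mesodermal types were represented among these 25 cells. Lhx1, Pax2 or Pax8, which mark the intermediate mesoderm that forms the kidney, were held by 11 cells, and the intermediate mesoderm list summed to 213 UPM against 7.01 UPM in sclerotome cells. The limb and lateral plate factor Hand2 was found in 6 cells, all with Prrx1, and Myf5 in 2 cells. Only 1 cell held Sox10 or Tfap2b, factors of neural crest. A single somitic type was thus not what the rule selected at this stage.

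Of 9941 genes compared at E9.5, 427 (4.3%) were at least 2-fold higher and 1034 (10.4%) at least 2-fold lower. The balance turned with no minimum of UMIs and 0 set to 3 UMIs, changed together, to 44.05% higher and 3.607% lower, and with at least 1 Scx UMI in place of 2, to 1.902% and 1.39%. Because 25 cells give few UMIs, only 193 of the former (1.94% of genes compared) and 155 of the latter (1.56%) had intervals of the ratio on 1 side of 0. Of the lower genes, 410 had 0 UMIs in Scx cells. The lateral plate list had 5 of 8 genes higher, all 5 with intervals above 0, and the trunk Hox list 6 of 15. Of 8 sclerotome genes 5 were lower and 0 higher. Of 12 FGF and ETS genes 2 were higher, including Etv4 with 9 UMIs (24.2 against 4.10 UPM).

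Among the 10 named genes higher at E9.5, Osr1, a zinc finger factor of intermediate and lateral mesoderm, had 23 UMIs in 8 cells (62.0 against 4.67 UPM, log2 3.73, 3.03 to 4.37). Cdkn1c (p57, a cell cycle inhibitor) had 304 UMIs (819 against 217 UPM), of which 205 lay in 5 cells with at least 20 UMIs, all of them with Osr1 and 4 with Pax2 or Pax8. In the 3 Scx cells with Pax1 or Pax9, which held 1, 3 and 3 Cdkn1c UMIs, its log2 ratio was −0.79. Against sclerotome cells without Sox2, Cdh5 and Myog the log2 ratio of Cdkn1c was −0.45 there. These UMIs are too few to set a direction. Prrx1 stood at 137 against 32.1 UPM with 51 UMIs in 12 cells, Lix1 at 148 against 13.9 UPM and Alx1 at 32.3 against 4.04 UPM. Plac8 had 39 of its 42 UMIs in 2 cells, and Dqx1, Phlda2, Capn6 and Gm14226 had 13 to 59 UMIs. The lowest ratios included those of the globin genes Hba-x, Hbb-y, Hba-a1 and Hbb-bh1, and globin UMIs numbered 7 in the 25 cells. In the sclerotome cells 8 globin-rich cells held 17564 of 27369 globin UMIs, and without them the globin level was 295 UPM in place of 820 UPM.

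Scx cells of E11.5 and E9.5 were also set side by side, and their make-up differs as described. Of 10584 genes, 2301 (21.7%) were at least 2-fold higher and 531 (5.02%) at least 2-fold lower at E11.5. With no minimum of UMIs and 0 set to 3 UMIs, changed together, the balance turned, to 8.431% higher and 44.31% lower. With the minimum, 844 of the higher genes had 0 UMIs at E9.5. The interval of the ratio lay on 1 side of 0 for 806 of the higher genes (7.62% of genes compared) and 352 of the lower ones (3.33%). Among sclerotome cells, with far more UMIs at E9.5, 14.7% of 11095 genes were higher and 3.74% lower between the same libraries, all with intervals on 1 side of 0. Matrix and tendon genes passed the minimum of 100 UMIs mostly through E11.5, and their number is not counted here for this reason.

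Of the genes with the highest ratios, Fibin stood at 376 UPM at E11.5, Nfib at 297, the growth factor gene Igf1 at 244, the ephrin receptor gene Epha3 at 157, Nfia at 141 and Bcl11a at 114 UPM, each with 0 UMIs at E9.5. Against a floor of 3 UMIs these were at least 46.5-fold, 36.7-fold, 30.2-fold, 19.5-fold, 17.5-fold and 14.1-fold higher in that order. The globin genes Hbb-y (log2 5.32) and Hba-x (6.00) completed the list, and without globin-rich cells, of which there were 2 among the E11.5 Scx cells, their log2 ratios were 1.96 and 2.30. The lowest ratios included those of Prtg (protogenin, 7.27 against 267 UPM, log2 −5.20), Dqx1, Hoxb5os, Plac8, Ifitm1, the developmental timing gene Trim71 (3.34 against 78.1 UPM) and Mogat2.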

How the data were processed

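Interlimb somites of 3 embryos were pooled per age, and libraries were prepared with the 10x Genomics Chromium system. Per the methods of the authors, Cell Ranger 3.0.1 aligned the reads to mm10. The deposited values are raw UMI counts per gene and barcode for 27998 genes, as deposited by the authors without normalization, and no column of another sample was present (0). Cell filters followed the study. Doublets were not removed, and Scrublet calls (scanpy 1.11.5, expected rate 0.08) were used as an alternative.

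UMIs were summed per class of cells, and levels, ratios and shares with 95% intervals were computed with Python 3.11.15, numpy 2.4.6, scipy 1.17.1 and pandas 2.3.3. Figures were drawn with matplotlib 3.10.9. To compare cells of unequal depth, each cell was thinned to 5000 UMIs, and shallower cells were left out. The computation was tested on simulated data. Named genes were those with the highest or lowest ratios by the interval bound nearest 0 (15 and 10 at E11.5, 10 and 5 at E9.5, 8 and 8 between stages), apart from genes used by the rule, mitochondrial, ribosomal protein, Xist and Y-linked genes. Genes of the marker and pathway lists were named too. Some genes that the rule names are not reported here. The members and the lists were chosen with earlier results of these data known. Single genes outside these rules (Irx1, Tbx1, Bop1, Tnni1), the subset with Sim2 and the values without 1 cell were added after the values were seen.

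Alternatives covered the Scx minimum, the excluded genes, the cell filters, the comparison class, the UMI minimum, doublets and thinning. With 1 library per stage no test between stages or classes was made.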

Additional observations from a re-analysis of the deposited data

Results flagged for a closer look

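In 6 listed or named genes the log2 ratio of Scx cells over sclerotome cells had opposite signs at the 2 stages, with both values past 2-fold. The ratio at E9.5 and at E11.5 was 3.73 and −1.49 for Osr1, 3.42 and −1.48 for Lix1, 2.10 and −1.22 for Prrx1, 1.71 and −1.61 for Fgfr2, 1.46 and −1.84 for Des and 2.37 and −4.96 for Tnni1. The difference between the stages was not tested, since each stage has 1 library. The E9.5 values rest on 25 cells, in 19 of which Prrx1 or Osr1 was found. Des and Tnni1 are muscle genes, and the E11.5 sclerotome cells included cells with Myog. Against E11.5 sclerotome cells without Sox2, Cdh5 and Myog, 0 of 8 genes compared from the muscle list were past 2-fold. Tnni1 is not on that list, so this count does not cover it. Whether cells with Myog account for the ratios of Des and Tnni1 was not tested.

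Among the barcodes that the filters on genes and mitochondrial UMIs left out, 26 at E11.5 met the rule on Scx, Sox2, Cdh5 and Myog. Their median depth was 41432.5 UMIs, against 13529 UMIs in the Scx cells, and Scrublet marked 38.5% of them.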

How the results depend on the processing

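For 56 ratios of named genes, 816 values under alternatives gave 633 within the counting interval of the reported ratio, 169 outside it in the same direction and 14 that turned direction. For the medians of 4 lists at E11.5, 72 values under alternatives gave 68 that moved little and 4 that moved. The FGF and cartilage lists moved in the Scx cells with Pax1 or Pax9 as reported. The median of the sclerotome list was −0.39 in all Scx cells and 0.15 in those with Pax1 or Pax9. In 178 further cases a class had 0 UMIs and no value was given. With 25 cells at E9.5, depth limits every value there. No paired analysis was possible because each stage has 1 library. The causes of the shifts below were not tested.

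With a minimum of 1 Scx UMI, Scx cells made up 2.589% (E9.5) and 36.57% (E11.5) of kept cells. With a minimum of 3 they made up 0.01015% (1 cell) and 16.94%, and after thinning 0.06442% and 13.07%. At E11.5 it was 25.4% with no exclusion, 22.96% with Sox10, Pecam1, Ptprc and Myod1 also at 0, 24.78% with at least 1000 genes per cell and 22.77% over all barcodes. The share of higher and lower genes at E9.5 was 1.902% and 1.39% with at least 1 Scx UMI, 15.53% and 55.07% with at least 3, 13.41% and 33.6% after thinning, 6.908% and 20.46% against all other cells without Scx, 12.43% and 38.49% for Scx cells with Pax1 or Pax9 (12.36% and 36.3% against sclerotome cells without Sox2, Cdh5 and Myog), 7.763% and 17.14% with at least 30 UMIs per gene and 44.05% and 3.607% with no minimum and 0 set to 3 UMIs (2 choices changed together). At E11.5 the share of higher genes was 0.5802% for Scx cells with Pax1 or Pax9 (0.6006% against sclerotome cells without the 3 excluded genes), 2.268% with at least 30 UMIs and 3.948% with no minimum and 0 set to 3. The share of lower genes was 1.848% after thinning, 11.34% against all other cells without Scx, 4.733% with at least 30 UMIs, 13.82% with no minimum and 0 set to 3, and 1.319% for Scx cells with Pax1 or Pax9 against sclerotome cells without the 3 genes. Between stages, the higher and lower shares were 56.23% and 16.22% with at least 3 Scx UMIs, 34.88% and 10.92% after thinning, 32.86% and 9.907% for cells with Pax1 or Pax9 and 8.431% and 44.31% with no minimum and 0 set to 3.

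Directions turned as follows, all as log2 ratios. Cdkn1c at E9.5 was −0.79 in Scx cells with Pax1 or Pax9, and −0.45 there against sclerotome cells without Sox2, Cdh5 and Myog. The 3 cells held 1, 3 and 3 Cdkn1c UMIs, too few to set a direction. Lyz2 was −1.45 with the additional genes at 0, −0.58 against all other cells, −0.037 and −0.17 in the 2 comparisons of Scx cells with Pax1 or Pax9 and −0.93 without its richest cell. Against sclerotome cells without the 3 genes, Acta1 was 0.073, Tnnc2 0.70 and Sln 0.42, and 0.36, 0.83 and 0.089 in the Scx cells with Pax1 or Pax9. These genes had 64, 41 and 14 UMIs in Scx cells, and 21, 12 and 3 in those with Pax1 or Pax9. Both comparisons fell short of the minimum of UMIs for each of these genes, so the counts are too few to set a direction. Hbb-y between stages was −0.061 with at least 3 Scx UMIs. The comparison of Scx cells with Pax1 or Pax9 against sclerotome cells without the 3 genes, the removal of the richest cell and that of globin-rich cells were chosen after seeing the data.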
